A study of Mus musculus with 12 samples.

Results

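The 8 genes described here, *Srebf2*, *Insig1*, *Hmgcs1*, *Idi1*, *Fdft1*, *Sqle*, *Lss* and *Dhcr7*, serve the synthesis of cholesterol and its control. They were taken by name from a list of genes of cholesterol biosynthesis and uptake among 54146 genes counted. All 8 passed the filter on low counts, as did 18628 genes in all. The list holds enzymes of the route, a transcription factor (*Srebf2*) and a regulatory membrane protein (*Insig1*). None of them is itself an uptake gene, so genes of uptake were read from a list of their own.

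Whole retinas of mice in a 129/SV background, including RNA of the retinal pigment epithelium (RPE), were sequenced as 1 library per mouse, with 3 mice in each of 4 conditions. The P30 control mice (mice 1 to 3) stood for day 0. The cKO mice carried *Crx-CreERT2* and *Otx2* flox/flox alleles, received a single injection of tamoxifen at P30 and were taken at P32 (mice 4 to 6), P34 (mice 7 to 9) or P38 (mice 10 to 12), which is 2, 4 or 8 d later. The labels call the P30 mice control and state neither which Cre or flox alleles they carried nor whether they were injected. The *Crx* promoter directs the inducible Cre to photoreceptors (PRs), so *Otx2*, a homeobox gene, is deleted in PRs while bipolar cells and RPE keep it. The cKO mice were also older than the controls, and the parts of age, tamoxifen, deletion and any other difference in genotype cannot be told apart. The question addressed was whether the genes of cholesterol synthesis changed after this deletion.

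Cholesterol is made from acetyl-CoA through mevalonate, the isoprenoids, squalene and lanosterol. When sterol in the endoplasmic reticulum is low, SREBP2, the product of *Srebf2*, is escorted by SCAP to the Golgi, is cleaved there and raises the transcription of nearly every enzyme of the route. When sterol is ample, INSIG1 holds SCAP and SREBP2 back. In the retina, Müller glia, RPE and PRs all handle cholesterol, and PR outer segments renew their membranes throughout life.

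Promoter stretches of both regulators, *Srebf2* and *Insig1*, and of *Hmgcs1*, the most abundant enzyme gene of the list, show the letters that factors of this pathway are known to bind. They were read from RefSeq (GRCm38.p6, plus strand, 5′ to 3′) and end before the start of each gene. Capitals mark TCACNCCAC, which takes in a known SREBP element, CCAAT, the letters bound by NF-Y (its opposite strand reads ATTGG), and the E-box CACGTG.
Hmgcs1, chr13:119690201-119690350: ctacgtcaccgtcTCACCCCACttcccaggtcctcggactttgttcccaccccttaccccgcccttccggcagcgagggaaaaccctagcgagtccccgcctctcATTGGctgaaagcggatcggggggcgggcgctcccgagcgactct
Insig1, chr5:28071163-28071362: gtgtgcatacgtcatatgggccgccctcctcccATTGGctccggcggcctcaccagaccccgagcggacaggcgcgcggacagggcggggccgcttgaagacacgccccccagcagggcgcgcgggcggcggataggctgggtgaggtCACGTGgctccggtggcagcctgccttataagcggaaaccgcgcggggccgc
Srebf2, chr15:82147031-82147180: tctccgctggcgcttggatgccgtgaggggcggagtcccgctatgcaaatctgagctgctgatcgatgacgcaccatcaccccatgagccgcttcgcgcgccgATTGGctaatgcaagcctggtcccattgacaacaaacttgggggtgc

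In windows of 250 bases before to 50 after the start, 6 of the 8 genes had an entry (8 windows in all). TCACNCCAC was in 1 of the 8 windows, that of *Hmgcs1*, as TCACCCCAC at position -137. It stood in 1.24% of all 32851 promoters and in 1.47% of the 68 promoters of the other pathway genes described further on. CCAAT was found in 6 of the 8 windows, against 37.4% of all promoters and 51.5% of those of the other pathway genes. GGGCGG, the letters bound by Sp1, was in 7 of the 8 windows, against 35.7% and 58.8%. CACGTG was in 2 of the 8 windows (*Insig1* and *Dhcr7*), against 7.15% and 11.8%. TAATCC, the core bound by OTX2 and CRX, was in 0 of the 8, against 7.06% and 10.3%. All motifs were searched on both strands, none of the marked ones overlap, and a match is a description of letters in these windows and not a site of binding.

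Levels are given as CPM, a gene's count set relative to the total of its own library, scaled by the TMM method of edgeR. Library totals lay between 29701483 and 60145034 counts on genes, so that 3 counts stood for 0.0473 to 0.102 CPM. P32 mouse 4 stood apart from the other libraries, at -89.6 on the first principal component (33.7% of the variance) where the other 11 lay between -40.4 and 42.5. It also had the highest share of reads without a unique position, 32.2%, against 23.7 to 29.3% elsewhere. By Xist and Y-linked counts the 3 P30 mice were female, and 5 of the 9 cKO mice were male. Counts over the whole *Otx2* gene lay between 293 and 328 CPM at P30 and between 307 and 377 CPM in the cKO mice. They do not check the deletion, which removes a single coding exon.

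Each condition was compared by edgeR's quasi-likelihood test in 1 fit of the 12 libraries, and a gene was called where it passed 2 limits, a p adjusted by Benjamini and Hochberg over all 18628 genes (0.05) and the size of the log2 fold change (0.5). None of the 8 genes was called at P32, P34 or P38 against P30, where 0%, 0.66% and 0% of all genes tested were called. DESeq2, which called 0.134%, 1.98% and 0.242% of all genes there, also called 0 of the 8. At an unadjusted p of at most 0.05, the counts were 0 at P32, 2 at P34 and 0 at P38. Over all genes tested, 5.64%, 10.5% and 5.64% reached that p (higher 2.55%, 3.4% and 1.82%, lower 3.09%, 7.06% and 3.82%). The 24 log2 fold changes, 8 genes at 3 ages, lay between -0.48 and 0.37. Of their 95% intervals, 15 of 24 lay wholly inside -0.5 to 0.5, and the widest reached from -1.14 to 0.19 for *Idi1* at P32. For these 15, a change as large as the call requires lay outside the interval. Some smaller changes did too, as for *Sqle* at P32 with an interval of -0.25 to 0.23, but those within each interval did not. In counts simulated for the P34 comparison, 3 of 100 genes with a true log2 change of 0.5 were recovered, and 62 of 100 with a true change of 1. Recovery there meant the adjusted p and the right direction, without the fold limit. The changed genes were drawn at random from genes of higher abundance, each with its own spread. These shares are thus neither those of the call nor those of the 8 genes.

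**Figure D1:**
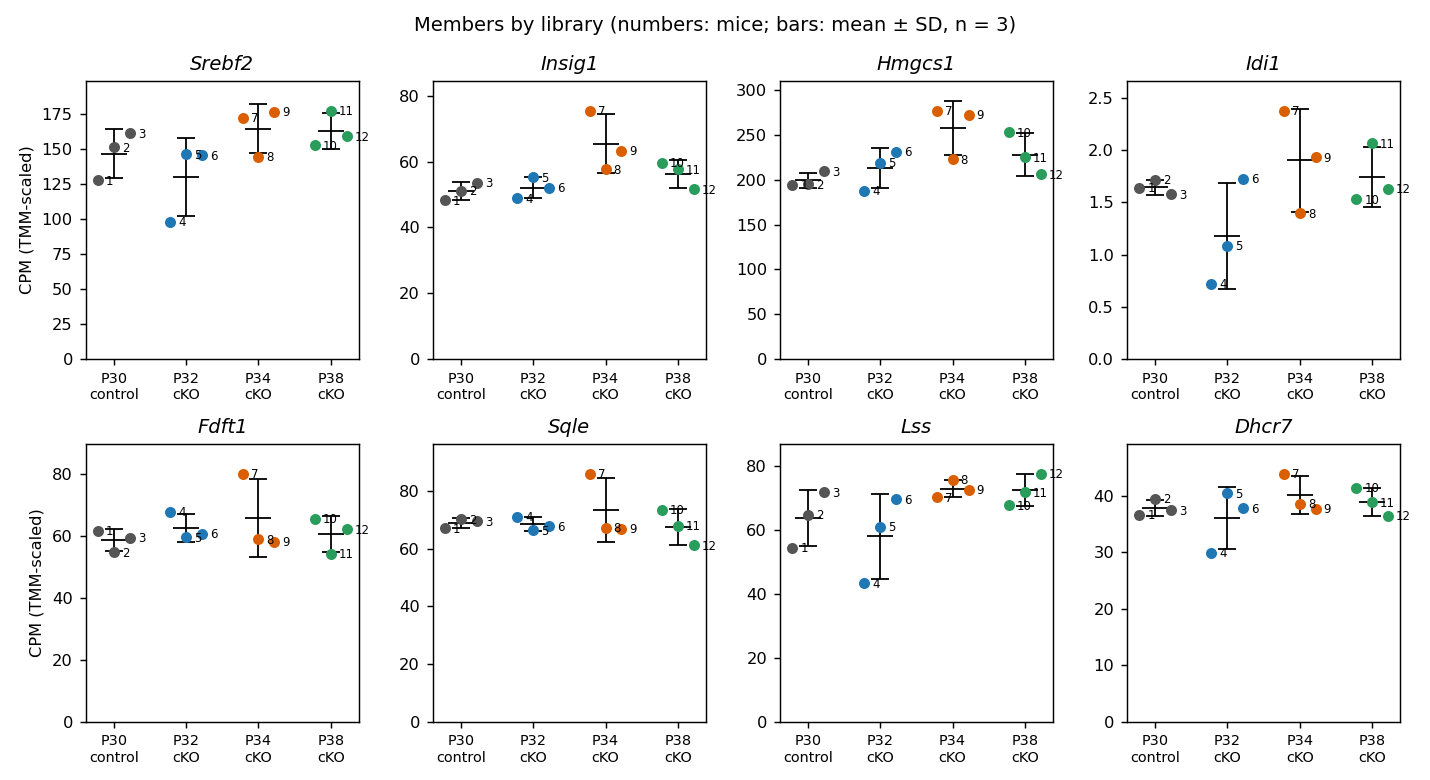
Level of each of the 8 genes (y axis, CPM with TMM scaling, from 0) in the 3 libraries of each condition (x axis), with each point numbered by mouse and bars for the mean ± SD (n = 3). P34 mouse 7 was the highest of the 12 libraries for 6 of the 8 genes, and P32 mouse 4 was the lowest for 5.

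*Srebf2* (ENSMUSG00000022463, chr15:82147181-82205379, plus strand, GRCm38) encodes SREBP2, the main activator of the pathway. The P30 mice had 128, 151 and 161 CPM and the P32 mice 98.0, 146 and 145. The P34 mice had 172, 145 and 177 CPM, and the P38 mice 153, 177 and 159. The groups overlapped, except that all P38 values lay above all P32 values (as for 13.3% of all genes tested), and P32 mouse 4 was the lowest library. From P32 to P38, the log2 fold changes of *Srebf2* against P30 were -0.17, 0.17 and 0.15, each with an SE of 0.15, and the edgeR adjusted p were 0.72, 0.75 and 0.886. Without mouse 4 the P32 value was -0.0071, and without mouse 1 the P34 and P38 values were 0.075 and 0.062.

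*Insig1* (ENSMUSG00000045294, chr5:28071363-28078662, plus strand) encodes the protein that retains the SREBP complex in the endoplasmic reticulum and is itself a target of SREBP. Its level was 48.2, 51.2 and 53.6 CPM at P30 and 48.9, 55.2 and 52.1 at P32. The P34 mice had 75.5, 57.7 and 63.3 CPM and the P38 mice 59.7, 57.7 and 51.6. All 3 P34 values lay above all 3 P30 values, as was so for 10.4% of all genes tested, and mouse 7 was the highest library. The mean was 51.0 ± 2.68 CPM at P30 and 65.5 ± 9.07 CPM at P34 (SD, n = 3). This is a log2 fold change of 0.36 (SE 0.11, 95% interval 0.12 to 0.60), with an edgeR adjusted p of 0.264. Without mouse 7 the fold change was 0.24 and the edgeR adjusted p 0.778. At P32 and P38 the log2 fold changes of *Insig1* were 0.030 and 0.14 (-0.013 to 0.074 and 0.10 to 0.20 with 1 mouse left out).

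*Hmgcs1* (ENSMUSG00000093930, chr13:119690379-119708260, plus strand) encodes the cytosolic synthase that makes HMG-CoA, the substrate of HMG-CoA reductase. It had 194, 195 and 209 CPM at P30, and 188, 219 and 231 CPM at P32. The P34 mice had 277, 223 and 272 CPM, while those of P38 held 253, 225 and 206. As for *Insig1*, all P34 values lay above all P30 values, while the P32 and P38 values overlapped those of P30. The mean was 199.6 ± 8.43 CPM at P30 and 258 ± 29.9 CPM at P34 (SD, n = 3). The log2 fold change at P34 was 0.37 (SE 0.12, 95% interval 0.11 to 0.63), with an edgeR adjusted p of 0.294. Leaving out mouse 7 gave 0.30 with an edgeR adjusted p of 0.778. The values at P32 and P38 were 0.093 and 0.19 (0.028 to 0.18 and 0.12 to 0.26 with 1 mouse left out). For *Insig1* and *Hmgcs1* at P34, the adjusted p over all alternatives tried went down to 0.0735 and 0.0935, both with DESeq2. Reads of *Hmgcs1* are partly shared, since 11.6% of its 50 bp stretches occur in transcripts of other genes, among them the overlapping *Gm48342* on the opposite strand.

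*Idi1* (ENSMUSG00000058258, chr13:8885501-8892451, plus strand) encodes isopentenyl-diphosphate isomerase, which interconverts the 2 building blocks of the isoprenoids. It was the least abundant of the 8, at 1.64, 1.72 and 1.57 CPM in the P30 mice. The P32 mice had 0.720, 1.09 and 1.73 CPM, the P34 mice 2.37, 1.40 and 1.93 and the P38 mice 1.53, 2.06 and 1.63. All groups overlapped, and the P30 values were the closest together. Its biological coefficient of variation, the spread between mice beyond counting error, was 25.7%, against 11.4 to 14.7% for the other 7 genes and a median of 17.7% over all genes. Its log2 fold changes against P30 were -0.48 for P32 (SE 0.31), 0.21 for P34 (SE 0.30) and 0.083 for P38 (SE 0.30). The P32 value was -0.23 without mouse 4 and -0.86 without mouse 6, the P34 value 0.0036 without mouse 7 and 0.39 without mouse 8, and the P38 value -0.060 without mouse 11 and 0.18 without mouse 10. Of its 50 bp stretches, 25.3% occur also in other genes (*Gm13502*, *Gm48574*, *Gm35570*), and reads with several positions were not counted, so its level is uncertain.

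*Fdft1* (ENSMUSG00000021273, chr14:63145150-63179578, minus strand) encodes squalene synthase, the first enzyme committed to sterols. The P30 mice had 61.8, 54.8 and 59.5 CPM of it, and the P32 mice 67.9, 59.7 and 60.7. The P34 mice had 80.3, 59.0 and 58.2 CPM, and the P38 mice 65.7, 54.4 and 62.3. Only mouse 7 lay clearly above the rest. The log2 fold change at P34 was 0.17 (SE 0.13) with all mice and -0.0087 without mouse 7. The gene overlaps *Ctsb* on the opposite strand over 774 of its 4227 exon bases (18.3%), and 26.5% of its 50 bp stretches occur also in other genes (*Ctsb*, *Gm6781*), so its level is uncertain too. The strand option of the counting is not stated in the sources used here, so reads of this stretch cannot be assigned with certainty.

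*Sqle* (ENSMUSG00000022351, chr15:59315077-59331192, plus strand) encodes squalene epoxidase, a rate-limiting enzyme after squalene. Its levels were 67.1, 70.2 and 69.5 CPM at P30, and 71.1, 66.5 and 67.9 CPM at P32. At P34 they were 86.1, 67.3 and 66.9 CPM, followed by 73.6, 67.9 and 61.3 CPM in the P38 mice. Here too mouse 7 was high alone, and the other 2 P34 mice lay close to the lowest P30 value. The log2 fold change of *Sqle* at P34 was 0.091 (SE 0.11, 95% interval -0.15 to 0.33) and became -0.046 without mouse 7.

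*Lss* (ENSMUSG00000033105, chr10:76531588-76557138, plus strand) encodes lanosterol synthase, which closes the sterol rings. It had 54.5, 64.8 and 71.9 CPM at P30 and 43.3, 61.0 and 69.6 CPM at P32. In the P34 mice 70.3, 75.6 and 72.6 CPM were counted, and in the P38 mice 67.7, 71.8 and 77.7. All P34 values lay above all P32 values, as for 14.8% of genes tested, but the P34 and P30 values overlapped. From P32 to P38, the log2 fold changes of *Lss* against P30 were -0.13, 0.19 and 0.19, each with an SE of 0.16. Without mouse 1 the P34 and P38 values were 0.094 and 0.084, and without mouse 4 the P32 value was 0.038.

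*Dhcr7* (ENSMUSG00000058454, chr7:143823145-143848410, plus strand) encodes 7-dehydrocholesterol reductase, which carries out the last step of 1 branch of the route. The P30 mice had 36.7, 39.4 and 37.4 CPM and the P32 mice 29.9, 40.4 and 37.8. The P34 mice had 43.9, 38.6 and 37.7 CPM and the P38 mice 41.4, 38.9 and 36.5. Apart from mouse 4, which was low, and mouse 7, which was high, all values lay between 36.5 and 41.4 CPM. The 3 log2 fold changes of *Dhcr7* against P30 were -0.070, 0.083 and 0.041, each with an SE of 0.12. With 1 mouse left out they ranged from -0.16 to 0.047, from 0.0046 to 0.11 and from 0.0027 to 0.086.

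Per length of exon, *Hmgcs1* was the most abundant of the 8 at P30, with 43.4 ± 1.83 CPM per kb (SD, n = 3). *Srebf2* followed with 20.4 ± 2.40, *Insig1* with 16.5 ± 0.866, *Fdft1* with 13.9 ± 0.845 and *Sqle* with 12.4 ± 0.292 CPM per kb. *Dhcr7*, at 6.51 ± 0.246, and *Lss*, at 5.91 ± 0.810 CPM per kb, differed by less than the spread of *Lss*. *Idi1* came last with 0.469 ± 0.0202 CPM per kb. The order depends on the exon bases taken for each gene, such as 10787 for *Lss* and 4227 for *Fdft1*. It also depends on reads with several positions, which were not counted.

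**Figure D2:**
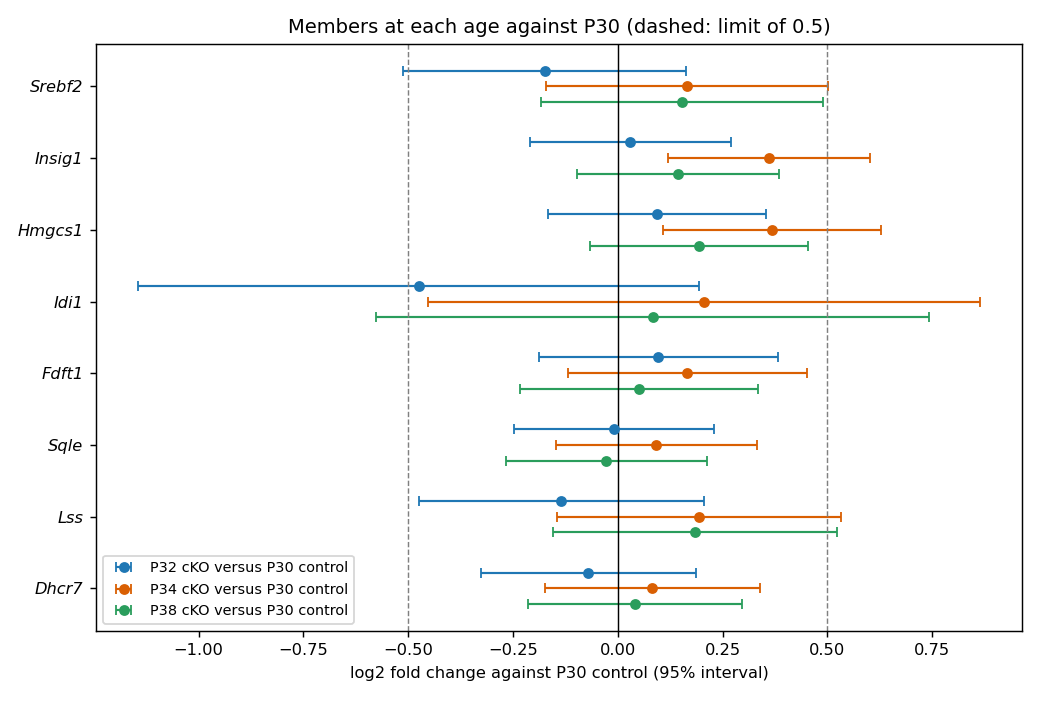
Log2 fold change against P30 control (x axis) of the 8 genes (y axis) at P32, P34 and P38, with points for the estimates and bars for 95% intervals from the fit of 12 libraries. At P34 all 8 estimates were above 0, and the intervals of *Insig1* and *Hmgcs1* excluded 0 before adjustment.

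Read as a list, the 8 genes had a median log2 fold change of -0.039 at P32 with 3 of 8 above 0, of 0.18 at P34 with 8 of 8 above 0, and of 0.11 at P38 with 7 of 8 above 0. Over all genes tested the medians were -0.0088, -0.0013 and -0.0091, and 48.5%, 49.8% and 48.2% of values were above 0. The 3 comparisons share the P30 mice. Without mouse 7 the median at P34 fell to 0.064, with 6 of 8 above 0. *Fdft1* and *Sqle* then lay below 0, and *Idi1* and *Dhcr7* came to 0.0036 and 0.0046. Without mouse 4 the median at P32 was 0.037, with 5 of 8 above 0. The 8 rod markers had medians of -0.098, 0.18 and 0.30 from P32 to P38, with 2, 8 and 8 of the 8 above 0, and their P34 median was 0.12 without mouse 7 and their P38 median 0.16 without mouse 10, each with 6 of 8 above 0. Their part in the values of the 8 genes was not tested. When the 3 cKO ages were averaged and set against P30, the median of the 8 was 0.065 with 7 of 8 above 0, and none was called, against 0.36% of all genes. That median was -0.0023 without mouse 1, with 3 of 8 above 0, 0.026 without mouse 6, 0.037 without mouse 7 and 0.11 without mouse 3. There *Hmgcs1* had a log2 fold change of 0.22 (SE 0.098, edgeR adjusted p 0.9995) and passed the unadjusted limit, while 0.574% of all genes were higher at that limit (4.19% in either direction). A test of any difference among the 4 conditions called 0 of the 8 and 0.344% of all genes. *Insig1* and *Hmgcs1* reached the unadjusted limit of 0.05 in that test, as did 17.2% of all genes.

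Between cKO ages, 0 of the 8 genes were called from P32 to P34 (background 0.242% of genes), from P34 to P38 (0.199%) or from P32 to P38 (0%) by edgeR. DESeq2 also called 0 of the 8 in each, where it called 7.63%, 0.773% and 4.99% of all genes. From P32 to P34 the median log2 fold change was 0.30, with 8 of 8 above 0, while over all genes tested it was -0.021, with 47.8% above 0. The median was 0.17 without mouse 4, with 8 of 8 above 0, and 0.22 without mouse 7, with 6 of 8. The rod markers had a median of 0.30 in this comparison, also with 8 of 8 above 0. *Srebf2*, *Insig1*, *Hmgcs1* and *Idi1* were higher at P34 at an unadjusted p of at most 0.05, as were 13.5% of all genes. *Idi1* had the largest difference, a log2 fold change of 0.68 (SE 0.31, edgeR adjusted p 0.182), and was the only 1 of the 8 past both the unadjusted p and the fold limit, as were 5.49% of all genes in this direction. It passed both limits of the call when P32 mouse 6 was left out, at 1.06 with an edgeR adjusted p of 0.0352 in a fit that called 14.3% of all genes, and fell to 0.43 without P32 mouse 4, so the call hung on which P32 library was left out. With DESeq2 *Insig1* reached an adjusted p of 0.0462 from P32 to P34, but its log2 fold change of 0.33 was below the limit. From P34 to P38 all 8 values were below 0, between -0.22 for *Insig1* and -0.0094 for *Lss*, and none of the 8 reached an unadjusted p of 0.05 (either direction, 5.08% of genes). Without mouse 7, 5 of the 8 were above 0 in that comparison, with a median of 0.018. From P32 to P38 none of the 8 reached it either, against 23.3% of genes, and the differences ran from -0.047 for *Fdft1* to 0.56 for *Idi1*. There *Idi1* had 0.31 without mouse 4 and 0.94 without mouse 6, and *Fdft1* had 0.028 without mouse 11.

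**Figure D3:**
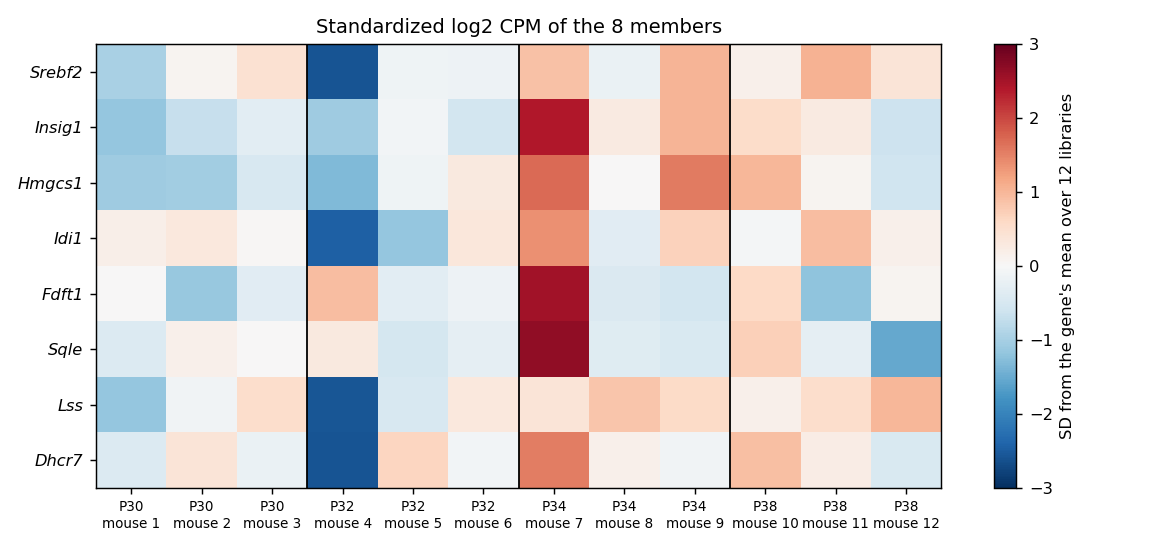
Level of the 8 genes (y axis) in each of the 12 libraries (x axis), as log2 CPM expressed in SD from each gene's mean over the libraries, from blue (low) to red (high). The darkest columns are P32 mouse 4, with a mean over the 8 genes of -1.42 SD, and P34 mouse 7, with 1.68 SD.

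Single libraries set much of the spread. P34 mouse 7 was the highest of the 12 libraries for *Insig1*, *Hmgcs1*, *Idi1*, *Fdft1*, *Sqle* and *Dhcr7*, and for 12.2% of all genes. P32 mouse 4 was the lowest for *Srebf2*, *Hmgcs1*, *Idi1*, *Lss* and *Dhcr7*, and for 29.8% of all genes. The mean of the 8 standardized levels was 1.68 SD in mouse 7 but -0.0099 and 0.47 in P34 mice 8 and 9. In the P30 mice it lay between -0.62 and -0.039, and in the P38 mice between -0.20 and 0.50. Mouse 7 is a male, and its share of reads without a unique position was 29.3%, the highest after mouse 4. With sex as a covariate, *Insig1* and *Hmgcs1* at P34 had log2 fold changes of 0.33 and 0.41, with edgeR adjusted p of 0.326 and 0.281. With the 7 female libraries alone, which leave 1 mouse each at P34 and P38 that is assumed to vary like the other groups, the values of *Insig1* and *Hmgcs1* were 0.33 and 0.47.

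All 8 rod markers were well detected in every library, as the label of retina requires. Their summed level lay between 63401 and 69707 CPM at P30, between 57262 and 62575 CPM at P32, between 71918 and 95859 CPM at P34, and between 70402 and 106103 CPM at P38. Mouse 7 had the highest rod sum at P34, and P38 mouse 10 the highest of all, with a mean of the 8 genes of 0.50 SD. In bulk libraries fewer cells of a type and less RNA per cell cannot be told apart. The sum of 10 Müller glia markers lay between 4736 and 5461 CPM in all libraries. Such a sum is set by the most abundant markers. The log2 fold changes of the single Müller glia markers at P34 against P30 ran from -0.98 to 0.39, with 6 of 10 above 0. The sum of 12 RPE markers was 251, 904 and 914 CPM at P30 and 125 to 368 CPM in the cKO mice. Sums for lens ran from 281 to 46002 CPM, for smooth muscle from 110 to 356 CPM and for ciliary body and iris from 202 to 329 CPM. No rod, Müller glia, RPE or lens marker was at 0 in a library, while *Cnn1* of the smooth muscle list was at 0 in 2 libraries, and *Matn3* and *Npvf* of the ciliary list in 2 and 1. The part of these cell types in the levels of the 8 genes was not tested.

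The 8 genes did not all vary together. Over the 12 libraries, 24 of their 28 pairs had a positive Pearson r of log2 CPM, with a median of 0.57 and a range from -0.22 (*Fdft1* with *Lss*) to 0.91. All points share library and depth. The closest pair was *Insig1* and *Hmgcs1*, with r = 0.91 (permutation p = 1e-05, the smallest 100000 permutations can give, adjusted over 28 pairs 0.00028) and Spearman's rho = 0.92 (permutation p = 6e-05, adjusted 0.00168). For this pair r was 0.85 without mice 7 and 9, the 2 farthest from the median, 0.90 without mouse 4 and 0.79 for deviations from the condition means. *Srebf2* and *Lss* had r = 0.88 (permutation p = 0.00135, adjusted 0.0189), but rho was 0.57 (permutation p = 0.056, adjusted 0.224) and r fell to 0.34 without mice 1 and 4, so it rests on these samples. *Srebf2* and *Idi1* had r = 0.85 (permutation p = 0.00214, adjusted 0.02) and rho 0.66 (permutation p = 0.0235, adjusted 0.181). For this pair r was 0.76 without mice 1 and 4, and 0.59 without mouse 4 alone. *Fdft1* and *Sqle*, both high in mouse 7, had r = 0.73 with all libraries and 0.019 without mice 4 and 7.

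The genes outside the list whose log2 CPM followed the mean of the 8 most closely were *Necap1* (r = 0.97), *Rimkla* (0.96), *Vps26b* (0.96), *Mmp15* (0.96), *Wfs1* (0.95), *Ankrd29* (0.95), *Zfand2a* (0.95) and *Chn1* (0.95), each over 12 libraries. In all, 947 of 18620 genes had an r over 0.8. Of the 73 other genes of cholesterol and fatty acid handling tested, 15 did, among them *Scarb2* (0.92), *Elovl6* (0.88) and *Scd1* (0.88). The mean of the 8 was furthest from 0 in mouse 4 (-1.42 SD) and mouse 7 (1.68 SD), and no r without these mice is given. *Tm7sf2*, which encodes a sterol reductase, had r = -0.87.

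The rest of the pathway was read from 5 lists, which with the 8 genes hold 83 genes, of which 81 were tested. Across these 81, 0 were called at P32, 1 at P34 (lower) and 0 at P38. Unadjusted p of at most 0.05 were found for 3 higher and 1 lower at P32, 9 higher and 5 lower at P34, and 5 higher and 1 lower at P38. Over all genes tested, 2.55% were higher and 3.09% lower at that p at P32. The shares were 3.4% and 7.06% at P34, and 1.82% and 3.82% at P38.

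Of 16 other cholesterol synthesis enzymes tested, none was called. From P32 to P38 their median log2 fold changes were 0.072, 0.19 and 0.020. *Hsd17b7*, a ketosteroid reductase of the route, had 8.17, 11.7 and 12.1 CPM at P30 and 16.6, 14.4 and 14.5 CPM at P34, so that all P34 values were the higher ones, as for 10.4% of genes tested. Its log2 fold change was 0.51 at P34 (SE 0.20, edgeR adjusted p 0.399) and 0.52 at P38 (SE 0.20, adjusted p 0.847). At P32 the largest values in this list were 0.51 for *Acat2*, 0.39 for *Mvd* and 0.38 for *Pmvk*, enzymes that act before the isoprenoids, with an edgeR adjusted p of 0.698 for each. Without mouse 4, *Acat2* had 0.30 and *Pmvk* 0.16. *Fdps* had -0.39 and *Tm7sf2* -0.29 at P38, and *Tm7sf2* had -0.31 at P34 (-0.20 without mouse 7). *Fdps* and *Acat2* share 26.2% and 39.1% of their 50 bp stretches with other genes.

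None of 10 other regulators of SREBP was called. *Srebf1*, which encodes the SREBP that favors fatty acid genes, had 94.7, 97.8 and 112 CPM at P30 and 172, 133 and 119 CPM at P38, all of them higher, as for 8.23% of genes tested. Its log2 fold change at P38 was 0.47 (SE 0.15, edgeR adjusted p 0.847), and mouse 10, at 172 CPM, was the highest library. *Scap*, the escort protein, had 0.30 at P38 (SE 0.096, edgeR adjusted p 0.847). The other named values were 0.28 at P34 and 0.18 at P38 for *Ubxn8*, and, at P32, 0.14 for *Srebf1*, 0.14 for *Pgrmc1* and -0.13 for the protease gene *Mbtps2*, which had 0.11 at P34. Those P32 values moved with single mice, *Pgrmc1* to -0.018 without mouse 4, *Mbtps2* to -0.067 without mouse 4 and *Srebf1* to 0.087 without mouse 5. *Mbtps2* at P34 had 0.065 without mouse 1, and *Ubxn8* at P38 had 0.066 without mouse 10.

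None of the 20 genes of uptake and intracellular transport was called, and the medians from P32 to P38 were -0.075, -0.00029 and 0.028. *Stard4*, a carrier of cholesterol between membranes, had 46.2, 49.1 and 54.3 CPM at P30, and 72.0, 72.2 and 66.8 CPM at P34. The P34 mice were all higher, as for 10.4% of genes tested, with a log2 fold change of 0.50 (SE 0.15, edgeR adjusted p 0.254). At P34, 2 of the 20 genes were higher (*Stard4* and *Scarb2*) and 2 lower (*Npc2* and *Lipa*) at an unadjusted p of at most 0.05. Over all genes tested, 3.4% were higher and 7.06% lower at that limit. *Npc2*, which carries cholesterol in the lysosome, had 62.0, 59.6 and 62.8 CPM at P30 and 49.7, 44.2 and 45.1 CPM at P34, all of them lower, as for 9.67% of genes tested. Its log2 fold change was -0.41 (SE 0.16, edgeR adjusted p 0.425), and those of *Lipa* and *Scarb2* were -0.37 and 0.32. *Cd36*, a scavenger receptor, had 0.44 at P34 and 0.59 at P38, each with an SE of 0.33. At P32 the largest values were -0.41 for *Lipa*, the lysosomal acid lipase, -0.35 for *Lrp8* and -0.33 for *Lrp1*, and at P38 *Gramd1a* had -0.42. Without mouse 4, *Lrp8* and *Lrp1* had -0.13 and -0.14 at P32. *Cd36* had 0.20 at P34 without mouse 7, and *Gramd1a* -0.21 at P38 without mouse 2.

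Of 15 genes of efflux, oxysterols and esterification tested, *Ch25h* was called lower at P34. It encodes cholesterol 25-hydroxylase, which makes an oxysterol that restrains SREBP activation. The P30 mice had 39, 39 and 11 counts and the P32 mice 39, 21 and 7, while the P34 mice had 1, 1 and 0 counts and the P38 mice 27, 27 and 8. The P34 libraries thus stood below all others, as for 1.76% of genes tested, and P30, P32 and P38 overlapped. The P30 mean was 0.576 ± 0.233 CPM (SD, n = 3). With 89 counts at P30 and 2 at P34, the ratio of P30 to P34 was 32.4, with an exact 95% interval of 8.70 to 271 that covers counting error only. The edgeR adjusted p was 0.0427. It went over 0.05 when any 1 of 9 of the 12 mice was left out (mice 1, 2, 3, 5, 7, 8, 9, 10 and 11, up to 0.207), and DESeq2 gave 0.00518. From P32 to P34 the edgeR adjusted p of *Ch25h* was 0.0742, and from P34 to P38 it was 0.146. The summed ciliary body and iris markers were also lower at P34, 202 to 220 CPM against 293 to 329 CPM at P30. The lens markers summed to 281 to 773 CPM at P34 and 539 to 40143 CPM at P30, which overlap. Their part in the *Ch25h* result was not tested.

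*Apoe*, the main lipid carrier made by glia, had 480, 514 and 526 CPM at P30 and 363, 277 and 364 CPM at P34, all of them lower, as for 9.67% of genes tested. Its log2 fold change was -0.60 at P34 (SE 0.20, edgeR adjusted p 0.313) and -0.42 at P38 (SE 0.20). *Apoe* is also 1 of the 10 Müller glia markers. *Tspo*, an outer mitochondrial membrane protein that binds cholesterol, had -0.99 at P34 (SE 0.33, edgeR adjusted p 0.313) and -0.46 at P38. At P32 *Cyp27a1* had 0.32, *Lcat* -0.30 and *Nr1h3*, the gene of LXRα, -0.21, and *Apod* had -0.46 at P38. Left out singly, mouse 5 moved *Cyp27a1* to 0.17 and mouse 2 moved *Nr1h3* to -0.14, while at P38 mouse 11 moved *Apod* to -0.19 and mouse 12 moved *Tspo* to -0.29.

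Fatty acid synthesis genes under SREBP control had no call among the 12 tested. Their medians from P32 to P38 were -0.14, 0.17 and 0.13, and 3, 10 and 9 of the 12 were above 0. *Fasn*, fatty acid synthase, had 161, 183 and 212 CPM at P30, 257, 216 and 269 CPM at P34, while the P38 mice had 230.4, 265 and 230, so both later ages lay above P30, as for 10.4% of genes tested at P34 and 8.23% at P38. Its log2 fold change was 0.42 at P34 (SE 0.16, edgeR adjusted p 0.392) and 0.38 at P38 (SE 0.16, adjusted p 0.847). *Acaca*, acetyl-CoA carboxylase, had 0.29 and 0.26 at the same ages, each with an SE of 0.10, and *Acly* had 0.29 at P34. At P32 the values furthest from 0 were -0.42 for *Fads2*, -0.38 for *Pnpla3* and -0.34 for *Scd1*, and *Pnpla3* had 0.37 at P38. Without mouse 4 the P32 values of *Fads2*, *Pnpla3* and *Scd1* were -0.13, -0.028 and -0.19, and without mouse 9 *Acaca* had 0.17 at P34.

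**Figure D4:**
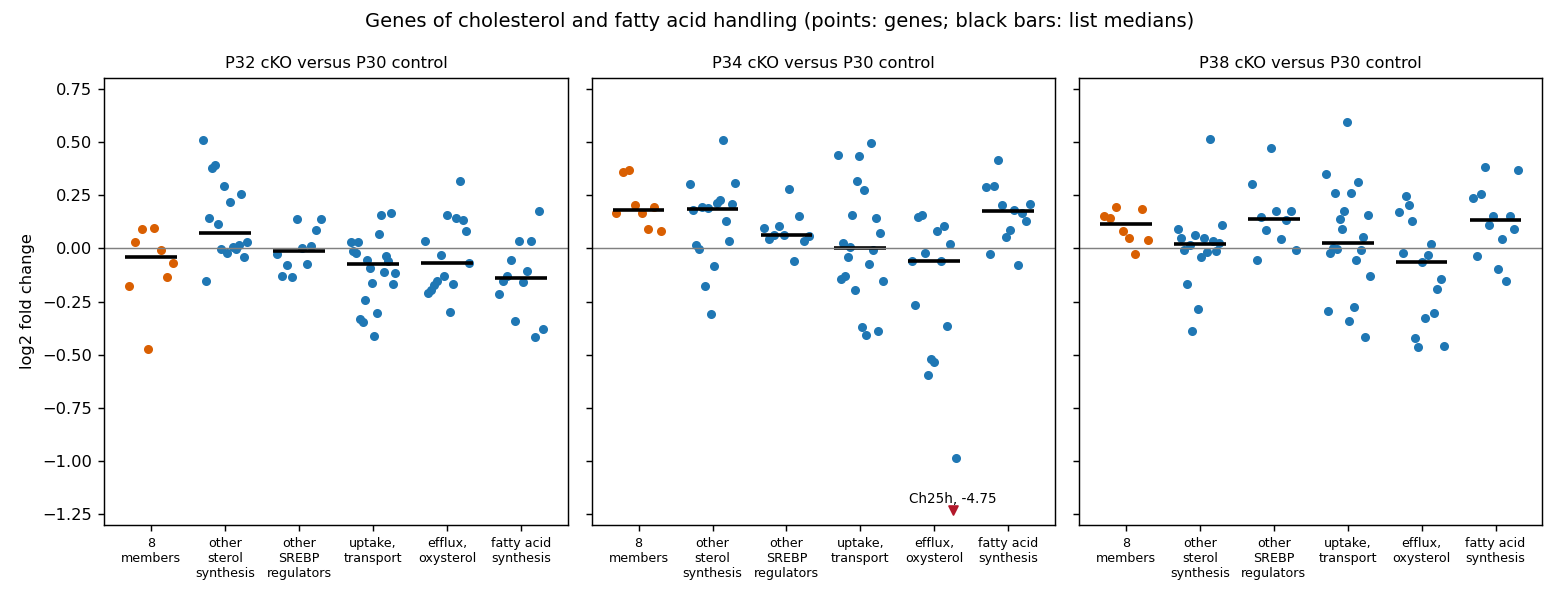
Log2 fold change against P30 control (y axis) at P32, P34 and P38 (panels) for the 8 genes and the 5 further lists (x axis), with 1 point per gene tested and black bars for list medians. At P34 the medians were 0.18 for the 8 genes, 0.19 for other synthesis enzymes and 0.17 for fatty acid synthesis, and *Ch25h* (log2 fold change -4.75, drawn as a triangle at the edge) is the only gene called.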

How the data were processed

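RNA of whole retinas was sequenced by the authors as 50 bp single reads from stranded mRNA libraries. Per the labels and the paper's methods, reads were prepared with bcl2fastq 2.17.1.14, mapped to mm10 with STAR 2.5.3a and counted by gene in the union mode of HTSeq 0.6.1p1. The authors deposited 1 set of raw counts per mouse, with no normalization. Reads with several positions were not counted. The 5 summary lines of each file, which held 36.1 to 41.5% of its reads, were left out.

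Genes were kept by edgeR's filter (18628 of 54146), scaled by TMM and fitted with edgeR 4.0.16 in R 4.3.3, with 1 mean per condition (8 residual degrees of freedom). The SE is the size of a log2 fold change divided by the square root of F. Levels are CPM, and log2 CPM used a prior count of 2. DESeq2 1.42.0, other scalings and filters, a robust fit, fits of only the conditions compared, sex as a covariate and leaving out each mouse were alternatives, and the female libraries alone were added after seeing the data. The procedure was tested on simulated data (18393 genes). Replicates are separate mice. No 2 libraries held the same counts. The floor of 3 counts covers counting error only.

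Names and positions came from GENCODE M21 (GRCm38), which named 54079 genes (99.9%). Promoters came from RefSeq (GRCm38.p6). *Fdft1* and *Sqle* are named only.

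The 8 genes and all lists were chosen with earlier results of these data known. Named were the 8 genes, any pathway gene called, the 3 genes of each list with the largest change at each age, *Otx2*, and the 8 genes most like the mean of the 8. Some genes that this rule names are not reported here, and counts and medians of the lists include them. *Scarb2*, *Npc2*, *Elovl6*, *Scd1*, *Lipa* at P34 and the correlation of *Tm7sf2* were chosen after their values were seen.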

Additional observations from a re-analysis of the deposited data

How the results depend on the processing

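None of the 8 genes was called in any comparison under other scalings, other filters, DESeq2, the robust fit, fits of only the conditions compared, sex as a covariate or the female libraries alone. At an unadjusted p with the limit on fold change, 1 of the 8 (*Idi1*) passed from P32 to P34, and 2 of the 8 (*Insig1* and *Hmgcs1*) had an unadjusted p of at most 0.05 in the test of any difference, which has no fold limit. Leaving out 1 mouse gave 0 to 1 of the 8 from P32 to P34 (*Idi1*, without mouse 6, where 14.3% of all genes were called) and 0 in every other comparison. No paired analysis was possible because the mice are numbered 1 to 12 and no number is shared between conditions.

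Of the 81 pathway genes, the 1 called at P34 against P30 was lost with the filter of 1 CPM (0) and in the female libraries (0), and an unadjusted p gave 4 (4.94%, against 6.27% of all genes). Leaving out 1 mouse gave 0 to 1. An unadjusted p gave 1 (1.23%) at P32, 1 at P38 and 1 for the mean of the cKO ages, in place of 0, against 2.90%, 3.46% and 2.95% of all genes. From P32 to P34, in place of 0, no filter gave 3 (3.66%, against 1.93% of all genes), DESeq2 6 (7.41%, against 7.63%), an unadjusted p 14 (17.3%, against 14.4%) and sex as a covariate 1 (1.23%, against 0.494%), and leaving out 1 mouse 0 to 15, with 15 without mouse 6 (18.5%, against 14.3%). From P34 to P38, in place of 0, no filter, DESeq2, the fit of only the conditions compared, an unadjusted p and sex as a covariate each gave 1 (against 0.209 to 3.81% of all genes), and leaving out 1 mouse 0 to 1, with 1 without mouse 6 (against 0.304%). From P32 to P38, in place of 0, DESeq2 gave 4 (4.94%, against 4.99%), an unadjusted p 11 (13.6%, against 11.9%) and leaving out 1 mouse 0 to 10, with 10 without mouse 6 (12.3%, against 10.2%). The cause was not tested.

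Log2 fold changes of the 8 genes changed sign in 70 of 1280 alternative values, of which 22 moved by more than 1 SE. In the female libraries these were, at P32 against P30, *Srebf2* 0.0034, *Lss* 0.048 and *Dhcr7* 0.057, at P34 against P30 *Sqle* -0.027, from P32 to P34 *Dhcr7* -0.046, from P34 to P38 *Fdft1* 0.094, and from P32 to P38 *Insig1* -0.051, *Hmgcs1* -0.12 and *Dhcr7* -0.096. With sex as a covariate, *Sqle* had -0.020 at P34 and -0.074 for the mean of the cKO ages. Without scaling, which moved the median of all genes from P32 to P38 to -0.14, *Insig1* had -0.0043, *Hmgcs1* -0.020 and *Dhcr7* -0.0076 there. Over the mice left out, *Lss* ranged from -0.29 to 0.038 at P32, *Fdft1* from -0.0087 to 0.24 and *Sqle* from -0.046 to 0.15 at P34, *Fdft1* from -0.10 to 0.14 and *Sqle* from -0.033 to 0.16 from P32 to P34, *Fdft1* from -0.19 to 0.053 and *Sqle* from -0.18 to 0.013 from P34 to P38, and *Dhcr7* from -0.0067 to 0.20 from P32 to P38. The turns to the other side came without mouse 4 for *Lss* and *Dhcr7* and without mouse 7 for *Fdft1* and *Sqle*.

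With 3 mice per condition, the 24 log2 fold changes of these genes against P30 had a median SE of 0.12. An estimate smaller in size than the limit of 0.5 could not be called at any p. In the simulated counts, 3 of 100 genes with a true change of 0.5 and 62 of 100 with a true change of 1 were recovered. Changes larger than the limit could thus be missed too.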
